A study of Homo sapiens with 30 samples.

Results

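Open chromatin was compared between HNF6 knockout and wild-type control cells at the gut tube stage (GT) of an in vitro pancreatic differentiation. The members were the autosomal regions of the 2 lists that the authors deposited for this stage, 2783 regions higher in control and 7500 higher in the knockout. They make up 10283 of the 89929 differential regions deposited for the series, and 6 control-list and 24 knockout-list regions outside the autosomes were set aside. Both groups derive from HUES8, an established human embryonic stem cell line, and each holds 3 ATAC-seq samples labelled primitive gut tube, 6 of the 30 samples of the series. The control group is labelled wild type and the other group HNF6-Knockout. The labels name no clone, no editing design and no separate differentiations for the 3 samples of a group, so their spread may be a technical one.

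HNF6, the product of ONECUT1, is a transcription factor with a cut domain and a homeodomain that is best known from the developing liver and pancreas. The primitive gut tube is the epithelium that forms from definitive endoderm and from whose foregut part liver and pancreas bud. ATAC-seq uses a transposase that inserts adapters into open DNA, so a region with many inserts, often a promoter or an enhancer, is read as accessible.

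Each deposited region carries 3 knockout values and 3 control values, whole numbers whose scaling is not stated, with a log2 ratio of control over knockout and a -log10 p of at least 5. Libraries are named here by the place of their value in the deposited table, since the table gives no sample names. Depth per library is unknown because the files hold listed regions only. The regions were selected by the authors for a difference between these 6 samples, so their GT values are a description and were not tested again. Positions are on hg19. Regions come without gene names, and no annotation or sequence of that build was used, so genes and sequences are not named and the gut tube label was not checked against marker genes.

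At GT the regions higher in the knockout outnumbered those higher in control 2.69 to 1. Of the listed autosomal regions, 27.1% were higher in control (95% Wilson interval 26.2 to 27.9, counting error only). The knockout list covered 7854 kb and the control list 3046.4 kb. Median widths were 850 bp and 950 bp, so single regions of the lists were of similar extent.

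In the authors' deposited tables the median region higher in the knockout changed 2.06-fold and the median region higher in control 1.83-fold. A ratio of at least 2-fold was given for 4035 knockout regions, or 53.8% of the list, and for 1169 control regions, or 42.0%. At least 4-fold ratios were rare in both lists, with 456 knockout and 161 control regions. The 3 values of one genotype lay wholly above those of the other in 82.5% of the knockout list and in 82.7% of the control list. These shares describe lists chosen for a difference.

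Over the regions higher in control, the median deposited value was 241, 232 and 264 in the control libraries and 137, 129 and 133 in the knockout libraries. Over the regions higher in the knockout, it was 177, 168.5 and 213 in the knockout libraries and 87, 88 and 92 in the control libraries. The third knockout library stood above the other knockout libraries in the knockout list. It alone held the highest knockout value in 4443 of the 7500 regions (59.2%), against 1640 for the first and 1358 for the second. In the control list the same library was the highest of its genotype in 823 of 2783 regions (29.6%). With the first and second knockout libraries alone, 3274 regions of the list reached 2-fold in place of 4035. No region named below changed direction. In most of them the lowest value of the higher genotype exceeded the highest of the lower genotype, so their direction could not change. The part of the third knockout library in the choice of the knockout list was not tested.

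**Figure D1:**
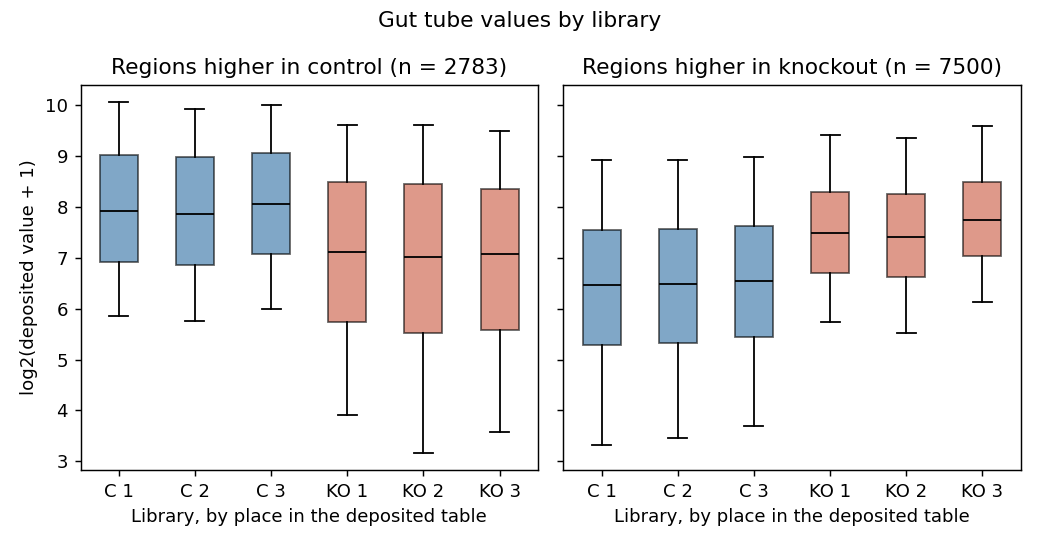
Deposited values of the 6 gut tube libraries, as log2(value + 1), over the regions higher in control (left) and higher in knockout (right). Boxes span the quartiles with the median as a line, whiskers the 5th to 95th percentile, C is control and KO is HNF6 knockout. In the right panel the third knockout library has a median value of 213, above the 177 and 168.5 of the other two.

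The size of the ratio followed the level and the width of a region. Among regions whose higher genotype had a mean of at most 100, the median absolute log2 ratio was 1.80 in the control list and 1.80 in the knockout list. Above a mean of 400 it was 0.52 and 0.56. Regions with high values therefore entered the lists with small ratios and those with low values with large ratios. A region with low values needs a large ratio to reach the -log10 p of at least 5. The threshold of the lists itself thus favours this relation. Regions of at most 500 bp had medians of 1.72 and 1.74, and regions over 2000 bp had 0.48 and 0.52.

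The direction also differed with the level. Of the 2250 regions with a mean over 400 in the higher genotype, 41.7% were higher in control (95% Wilson interval 39.7 to 43.7). In the 3 lower classes, up to 100, from 100 to 200 and from 200 to 400, the control share was 24.7%, 22.1% and 22.8%. The excess of knockout regions was thus smaller among the regions with the highest values. Values were not divided by width here, so a high value may also mark a wide region. By width the control share varied less, from 25.3% in both classes up to 1000 bp to 30.0% between 1000 and 2000 bp and 28.4% above.

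**Figure D2:**
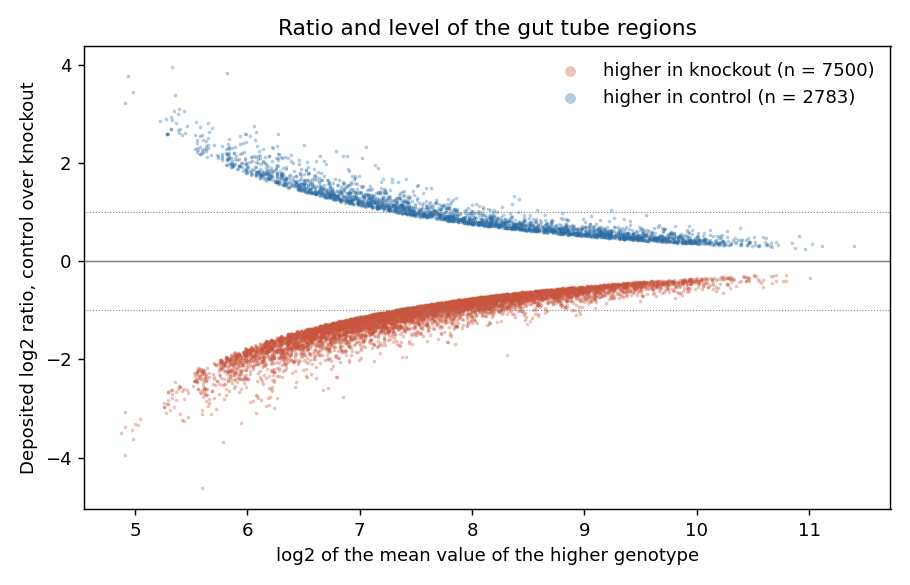
Deposited log2 ratio of control over knockout (vertical axis) against the log2 of the mean value of the higher genotype (horizontal axis), with 1 point per listed gut tube region. Dotted lines mark a 2-fold ratio. The empty band around a ratio of 0 is widest at low values: the median absolute ratio is 1.80 in both lists for means up to 100, and 0.52 and 0.56 above 400.

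The region with the highest -log10 p of the knockout list was a narrow one on chromosome 22, 18879901 to 18880300. In the authors' deposited table it had knockout values of 298, 306 and 348 and control values of 86, 56 and 108, a 3.77-fold difference. It was listed as higher in the knockout at the 4 other stages too, namely in undifferentiated cells (ESC), definitive endoderm (DE), pancreatic endoderm (PE) and pancreatic progenitors (PP). At DE the authors' deposited table gives knockout values of 320, 257 and 192 against control values of 34, 49 and 47, and at PP 257, 307 and 334 against 90, 80 and 29. At ESC the authors' deposited table has 182, 196 and 335 against 185, 33 and 105, and the genotypes overlapped. The direction at GT was thus the one listed at the earlier and later stages.

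The next knockout regions by -log10 p were on chromosomes 3, 11, 12 and 22. Chromosome 3, 46971801 to 46973650, had knockout values of 562, 411 and 484 and control values of 202, 274 and 199 in the authors' deposited table. Chromosome 11, 65424601 to 65426900, had 563, 340 and 588 against 226, 179 and 299 by the authors' deposited table. In both the lowest knockout value lay above the highest control value, with ratios of 2.15-fold and 2.11-fold. The former was also higher in the knockout at DE and the latter at PE, and neither was listed at any other stage. The second region on chromosome 22, 23621201 to 23624000, had 830, 937 and 922 against 538, 550 and 506 in the authors' deposited table, and was higher in the knockout at DE and PP as well.

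Of the regions higher in control, the leading one by -log10 p was at chromosome 7, 94536601 to 94538350. The authors' deposited table gives control values of 662, 803 and 777 and knockout values of 406, 342 and 415, a 1.93-fold difference. Its only other listing was at ESC, in the opposite direction, where the authors' deposited table has 300, 585 and 543 for the knockout and 236, 299 and 422 for control. The genotypes overlapped there. Chromosome 10, 20104251 to 20107100, followed with control values of 1192, 1268 and 1562 and knockout values of 777, 968 and 781 in the authors' deposited table. It was also higher in control at DE, where the genotypes overlapped.

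Chromosome 2, 114359751 to 114362100, was higher in control at every stage. At GT it had control values of 650, 666 and 495 and knockout values of 395, 269 and 220 in the authors' deposited table. The log2 ratio of the authors' deposited table was 1.03 at GT, 1.01 at ESC, 1.20 at DE, 2.15 at PE and 2.34 at PP, and the genotypes did not overlap at any stage. The GT region is 2350 bp wide and the regions of the other stages are narrower, so these ratios are not of identical intervals.

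The remaining leading control regions were accessible in both genotypes. Chromosome 3, 167452001 to 167453750, had control values of 2039, 2135 and 1588 and knockout values of 1383, 1559 and 1118 in the authors' deposited table, a 1.42-fold difference. At PP its right part was listed in the opposite direction, with 1324, 1112 and 1128 for the knockout and 976, 971 and 796 for control in the authors' deposited table. Chromosome 9, 136293251 to 136295400, had 1097, 832 and 1006 for control and 764, 437 and 594 for the knockout in the authors' deposited table and was listed at GT only.

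The largest ratios fell on narrow regions with low values in the lower genotype. The rule for these took the 5 largest ratios of each list among regions with a mean of at least 50 in the higher genotype and no overlap of values. All 10 were 250 or 300 bp wide and none was listed at another stage. In the authors' deposited table, chromosome 7, 66832301 to 66832550, had control values of 106, 33 and 30 and knockout values of 2, 1 and 6, so 1 control library was more than 3-fold above the other two. Chromosome 16, 69085201 to 69085450, had 48, 37 and 66 for control against 9, 1 and 9 for the knockout in the authors' deposited table. The other 3 control regions were on chromosomes 5, 6 and 19, with ratios of 6.21-fold to 6.77-fold.

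In the knockout list the largest such ratio was at chromosome 7, 73365551 to 73365800. There the authors' deposited table gives knockout values of 33, 51 and 81 and control values of 5, 5 and 0. Chromosome 2, 215268301 to 215268550, had 54, 41 and 63 against 6, 5 and 6 in the authors' deposited table, with little spread within a genotype. Those on chromosomes 5, 6 and 8 had ratios of 8.58-fold to 9.89-fold, and in each the second knockout library was the lowest of its genotype.

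At the threshold of the lists, the region with the lowest -log10 p of the control list was chromosome 9, 133308351 to 133309750, with control values of 446, 627 and 556 and knockout values of 361, 404 and 390 in the authors' deposited table. That of the knockout list was chromosome 2, 9518551 to 9519300, for which the authors' deposited table has 264, 155 and 203 in the knockout and 107, 96 and 141 in control. Values of regions below the threshold are not used here.

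The knockout itself could not be read from the GT lists. Whether the interval described next is the edited place was not tested, since the labels give no editing design and no annotation was used. Across the other stages, 6 regions of the control lists whose knockout mean did not exceed 2% of a control mean of 50 or more marked an interval of chromosome 15 from 53072851 to 53082400, and no GT region lies inside it. Within 100 kb of that interval, 3 GT regions were listed. On its right, the region from 53087251 to 53087650 had control values of 73, 109 and 84 and knockout values of 35, 28 and 30 in the authors' deposited table. Further right, 53097501 to 53098650 had 219, 271 and 375 for control and 227, 160 and 121 for the knockout in the authors' deposited table, and the genotypes overlapped. On its left, 53043551 to 53043800 had 74, 32 and 37 for the knockout and 13, 3 and 13 for control in the authors' deposited table and was listed at no other stage.

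The 2 regions on the right were also higher in control at PE. There the authors' deposited table gives a log2 ratio of 1.37 for the region that covers the former, and 0.69 for the one that overlaps the latter. At ESC the region around the latter went the other way, with -0.59 in the authors' deposited table. At PP the authors' deposited table lists a region overlapping the latter as higher in control, with 0.78 and overlapping values of the genotypes.

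The direction of the GT differences varied widely between autosomes. Chromosome 7 had the highest control share, 74.8% of 508 regions (95% Wilson interval 70.9 to 78.4), and chromosome 17 the lowest, 6.17% of 713 (4.63 to 8.18). Chromosomes 21 and 10 also had more control than knockout regions, with 58.2% (interval 48.3 to 67.4) and 56.1%, and the remaining autosomes had fewer. Chromosome 12, with 11.6%, chromosome 11, with 15.8%, and chromosome 20, with 16.7%, followed chromosome 17 at the low end. These intervals cover counting error only, and neighbouring regions of a chromosome are not independent. Without chromosome 7 the control share over the rest was 24.6%, and without chromosome 17 it was 28.6%.

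Both lists contributed to this contrast when set against a count of wild-type peaks. That count is of the wild-type peak clusters, which the authors deposited as 9 files of 500 bp regions. It is not a count of all accessible places. Only 16.9% of the control list and 5.03% of the knockout list overlapped a cluster region. Whether the same densities would hold against all accessible places was not tested. For each 100 cluster regions chromosome 7 had 31.6 regions higher in control, where the median autosome had 11.4. It had 10.6 higher in the knockout, where the median was 31.6. Chromosome 17 had 4.25 higher in control and 64.6 higher in the knockout. Chromosome 7 thus had the most control regions and the fewest knockout regions per cluster region of all autosomes, and chromosome 17 the reverse.

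**Figure D3:**
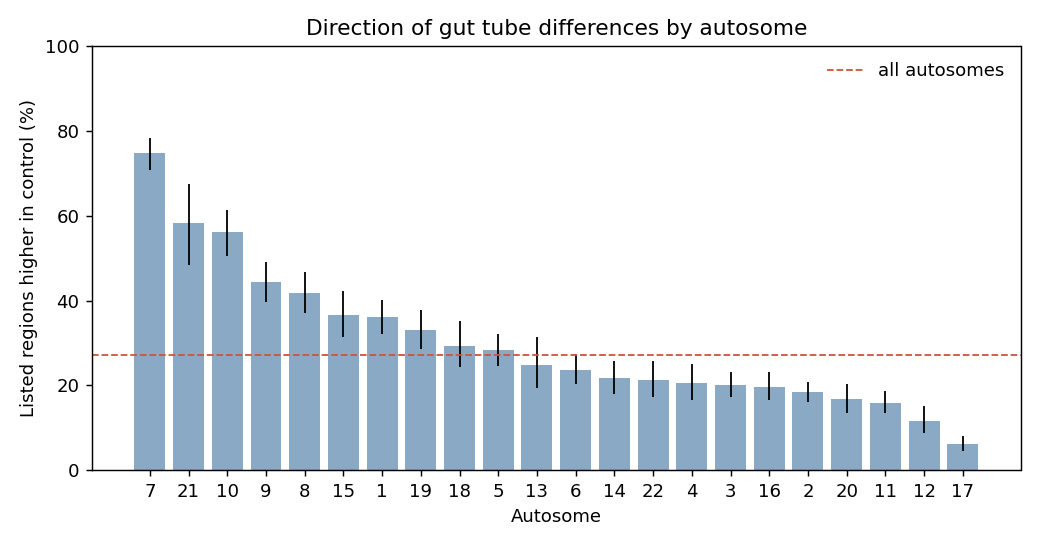
Share of listed gut tube regions that were higher in control (vertical axis, percent) on each autosome, ordered from the highest to the lowest. Bars carry 95% Wilson intervals for counting error and the dashed line is the 27.1% of all autosomes. Chromosome 7 stands at 74.8% and chromosome 17 at 6.17%.

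The size of single differences on these chromosomes did not follow their counts. The median log2 ratio of control regions was 0.74 on chromosome 7, the smallest of any autosome, and 1.08 on chromosome 17. For knockout regions it was -1.19 on chromosome 7 and -0.91 on chromosome 17. The genotypes were apart in 83.9% of the control regions of chromosome 7 and in 78.8% of the knockout regions of chromosome 17, against 82.7% and 82.5% of the whole lists.

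The contrast extended over the length of both chromosomes. In windows of 20 Mb along chromosome 7, the control share ranged from 58.7% between 120 and 140 Mb to 84.0% between 80 and 100 Mb. Along chromosome 17 it ranged from 2.50% in the first 20 Mb to 10.2% between 40 and 60 Mb. Uninterrupted runs of regions in 1 direction were correspondingly long. On chromosome 17, 62 knockout regions in a row lay between 74375901 and 77545100, and on chromosome 7, 24 control regions in a row lay between 79544801 and 93520450.

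Dense windows followed the same division. The 3 windows of 1 Mb with the most control regions were on chromosome 7, led by the window from 150 to 151 Mb with 19 control and 2 knockout regions. The window from 100 to 101 Mb had 14 control and 0 knockout regions. The windows with the most knockout regions were on chromosome 17, from 79 to 80 Mb with 29 against 2 control regions, and from 17 to 18 Mb with 26 against 0. On chromosome 6 the window from 41 to 42 Mb had 26 knockout and 3 control regions. Of the 294 windows with at least 10 listed regions, 36 held knockout regions only and 1 held control regions only. Only 27.1% of all listed regions were higher in control, so windows of knockout regions only were the likelier kind from the start.

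The same chromosomes were not the extreme ones at other stages, although chromosome 7 was above all autosomes together at each of them. The control share of chromosome 7 was 47.0% at ESC, 41.6% at DE, 65.1% at PE and 20.1% at PP, where all autosomes together had 42.9%, 37.2%, 56.3% and 11.4%. For chromosome 17 it was 49.5%, 28.9%, 61.9% and 9.08%, so above all autosomes at ESC and PE and below them at DE and PP. At each stage other autosomes were extreme, among them chromosome 22 at DE with 4.85% and chromosome 18 at PE with 90.1%. With 1 set of 3 libraries per genotype at each stage, the genotype and the set of libraries cannot be told apart in a direction shared along a chromosome.

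Few GT differences lay in the wild-type clusters. Of the control list, 469 regions (16.9%) overlapped a cluster region by at least 1 bp, and of the knockout list 377 (5.03%). The clusters are regions of wild-type peaks, so places open mainly in the knockout can be missing from them. The lower share of the knockout list may therefore be part of how the clusters were made. In the authors' deposited tables control regions in clusters had a median control mean of 447.7 and a median log2 ratio of 0.64, against 209.5 and 0.97 for those outside. Knockout regions in clusters had a median knockout mean of 396 and an absolute ratio of 0.69, against 179.3 and 1.07 outside. In both directions the larger part of the GT differences, and the larger median ratio, lay outside the clusters at lower values. Regions there were also narrower, with median widths of 850 bp (control) and 800 bp (knockout) against 1350 bp in clusters.

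Cluster 3 was the cluster with the highest share in the control list. Of its 2550 autosomal regions 169 were higher in control at GT, or 6.63% (95% Wilson interval 5.73 to 7.66), against 2.49% of all 22892 cluster regions. Only 20 of its regions (0.784%) were higher in the knockout, the lowest share of any cluster and below the 1.87% of all clusters. On chromosome 7 the control list held 24 of its 154 regions (15.6%), and outside chromosomes 7 and 17 it held 144 of 2339 (6.16%). The cluster 3 regions of the control list had a median control mean of 337.3 against 190.5 in the knockout.

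For cluster 3, GT was also the stage with the highest share higher in control. That share was 3.02% at ESC, 3.65% at DE, 1.10% at PE and 0.471% at PP, where all clusters had 5.39%, 4.997%, 6.46% and 2.48%. In the knockout lists cluster 3 had 4.71% at ESC, 5.49% at DE, 0.784% at GT, 3.33% at PE and 14.5% at PP, where all clusters had 3.75%, 5.71%, 1.87%, 3.98% and 11.1%. The labels call the clusters regions of wild-type peaks and do not describe the profile of each. If cluster 3 was formed from peaks high in the GT control libraries, a high control share at GT would be built in. This was not tested.

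Clusters 7, 6 and 1 were also above all clusters together in the control list, with 4.78%, 4.02% and 3.52%. In clusters 8 and 9 most listed regions were higher in the knockout, 75 of 99 and 71 of 95, which leaves control shares of 24.2% and 25.3%, where all clusters had 57.2%. That 57.2%, against 27.1% of all GT regions, may also reflect that the clusters hold wild-type peaks. Cluster 8 was below all clusters in the control list, with 0.852%, and above them in the knockout list, with 2.66%. Cluster 9 was below them in the control list, with 0.512%. In the knockout list its 1.52% had a 95% Wilson interval of 1.20 to 1.91, which holds the 1.87% of all clusters. Clusters 2 and 4 were also below in the control list, with 1.04% and 0.856%. In the knockout list cluster 4 was below, with 1.27%, and the interval of cluster 2, 1.16 to 2.13, held the 1.87%. Control shares of clusters 2 and 4 were 39.7% and 40.4%. In cluster 3 the control share was 89.4% (95% Wilson interval 84.2 to 93.0). Clusters 6 and 1 were above the 1.87% of all clusters in the knockout list too, with 2.88% and 2.57%. Cluster 7 had 2.25% there, and its interval, 1.78 to 2.83, held the 1.87%.

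**Figure D4:**
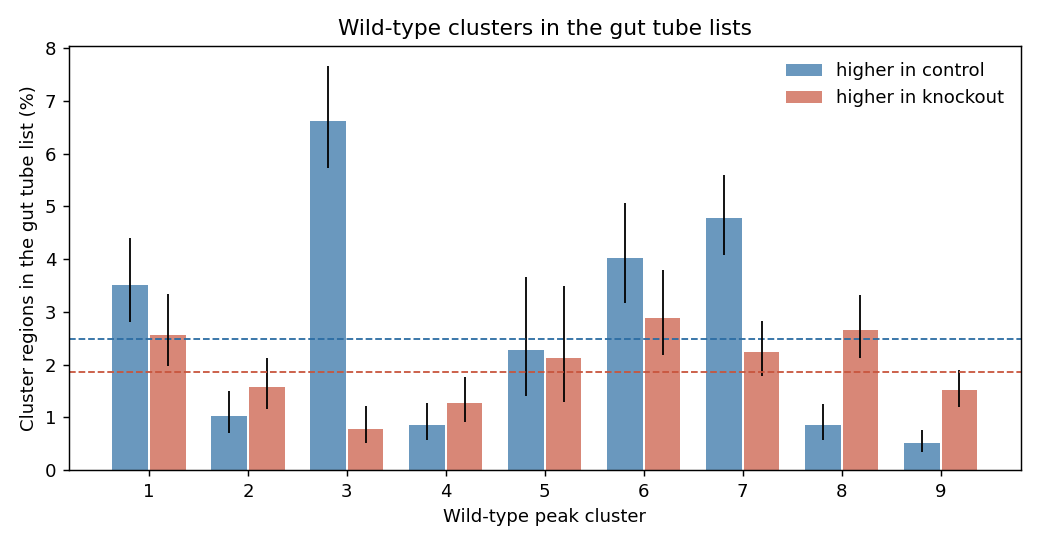
Share of the autosomal regions of each wild-type peak cluster (vertical axis, percent) that overlapped a gut tube region higher in control or higher in knockout. Bars carry 95% Wilson intervals for counting error, and dashed lines give the 2.49% and 1.87% of all cluster regions. Cluster 3 reaches 6.63% in the control list and 0.784% in the knockout list.

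Most GT regions were listed at GT only. Of the control list 1864 regions (67.0%) and of the knockout list 5830 (77.7%) overlapped no list of another stage. These regions had lower values and were narrower, with a median of 168 and 157.3 for the mean of the higher genotype and a median width of 750 bp in both lists. Regions also listed at 1 other stage had medians of 421.7 and 316 and widths of 1250 and 1300 bp. Their median ratios were smaller, 0.65 and 0.77 on the log2 scale, against 1.10 and 1.16 in regions listed at GT only. Wide regions have more room to overlap, so width and recurrence are not independent.

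The places of the GT lists were followed to the other stages through the regions listed there. For each other stage, both of its lists were searched for regions that overlap a GT list, and the mean log2(value + 1) over these regions was taken in each of its 3 control and 3 knockout libraries. These regions had themselves been listed for a difference between those libraries, so a gap between the genotypes is part of how they were chosen and no test is given. They also cover only a small part of each GT list, since places not listed at a stage have no values there. The control minus knockout difference and the control share over all listed regions of the stage, chosen in the same way, are given for comparison.

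Of the 7500 regions higher in the knockout at GT, 542 (7.23%) were listed at DE, mostly in the same direction. Over the 549 DE regions that overlap them, the 3 knockout libraries had means of 8.52, 8.26 and 8.31 and the 3 control libraries 8.06, 7.99 and 8.02 on the log2 scale. The difference was -0.34, against -0.11 over all DE regions. Of these DE regions 22.2% were higher in control (95% Wilson interval 18.9 to 25.9), against 37.2% of all DE regions. The DE share expected from the chromosomes on which they lie was 34.3%.

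At PE, where listed regions were mostly higher in control, the part of the same GT list that was listed, 334 regions (4.45%), leaned to the knockout. Over 341 PE regions the means were 8.41, 8.26 and 8.36 in knockout and 8.19, 8.23 and 8.12 in control libraries. The difference was -0.17, against 0.28 over all PE regions. The control share was 36.1% (95% Wilson interval 31.2 to 41.3), against 56.3% of all PE regions and 54.3% at the same mix of chromosomes.

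At PP, 717 regions (9.56%) of the GT knockout list were listed, and the 754 PP regions that overlap them had a difference of -0.86 against -0.98 over all PP regions. The knockout libraries had 8.11, 7.81 and 7.81 and the control libraries 7.02, 7.11 and 7.01. The control share of these regions was 5.70%, against 11.4% of all PP regions and 10.03% at the same mix of chromosomes.

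At ESC the listed part of the GT knockout list, 476 regions (6.35%), leaned the other way. Over 497 ESC regions the control libraries had means of 8.33, 8.16 and 8.18 and the knockout libraries 8.06, 8.08 and 8.09. The difference was 0.14, where all ESC regions had -0.26. Of these regions 60.6% were higher in control (95% Wilson interval 56.2 to 64.8), against 42.9% of all ESC regions and 46.1% at the same mix of chromosomes. Places more open in the knockout at GT were thus, where listed in undifferentiated cells, more often listed there as less open in it.

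Regions higher in control at GT had differences nearer to 0 than the listed regions of the stage at ESC, PE and PP. Over 408 ESC regions the difference was -0.078, against -0.26 over all ESC regions. Over 288 DE regions it was -0.10, against -0.11 over all, and over 234 PE regions it was 0.029, against 0.28 over all. At these 3 stages the values of the genotypes overlapped. The control shares at ESC and DE, 42.9% and 39.2%, were near the 42.9% and 37.2% of all regions, and at PE the share was 46.2% (95% Wilson interval 39.9 to 52.6), below the 56.3% of all. At PP, over 372 regions, the knockout libraries had means of 8.68, 8.50 and 8.56 and the control libraries 8.01, 8.18 and 7.99. The difference there was -0.52, against -0.98 over all PP regions. Of these PP regions 16.7% were higher in control (95% Wilson interval 13.2 to 20.8), against 11.4% of all and 13.2% at the same mix of chromosomes. At ESC, DE and PE that mix gave 41.9%, 36.4% and 56.4%. The listed parts of the GT control list were 393 regions (14.1%) at ESC, 281 (10.1%) at DE, 232 (8.34%) at PE and 359 (12.9%) at PP.

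**Figure D5:**
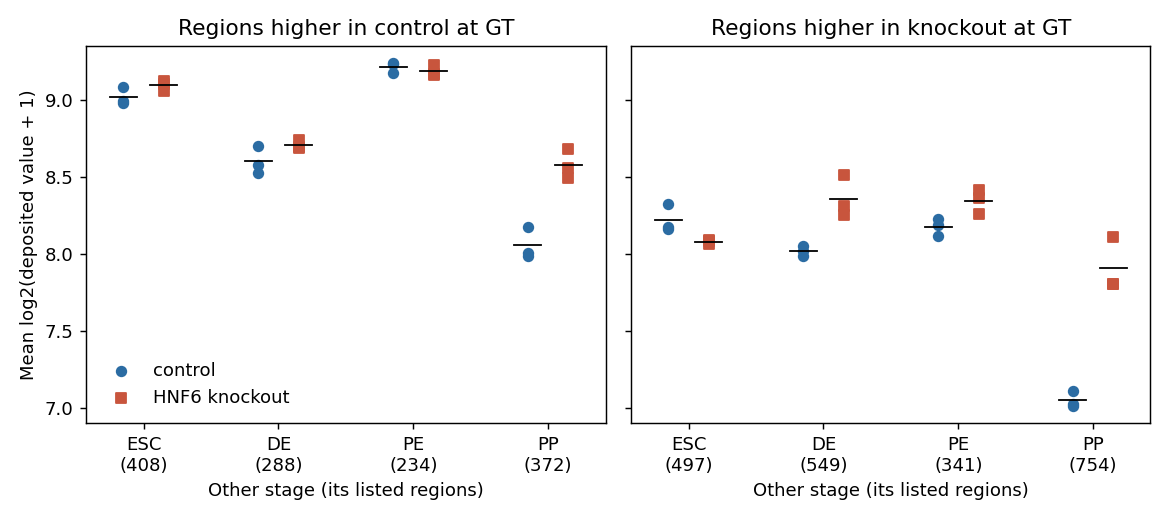
Mean log2(deposited value + 1) of each library at the 4 other stages (vertical axis), over the listed regions of that stage that overlap the gut tube control list (left) or knockout list (right). Circles are control libraries, squares are HNF6 knockout libraries, lines are group means, and the number of regions is under each stage. In the right panel the knockout libraries lie above the control libraries at DE, PE and PP and below them at ESC.

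A small set of GT regions was listed at all 5 stages, 8 of the control list and 9 of the knockout list. Of the 9 knockout regions 6 overlapped only regions higher in the knockout at the other stages, and of the 8 control regions 2 overlapped only regions higher in control. Of all listed regions 42.9% were higher in control at ESC, 37.2% at DE, 56.3% at PE and 11.4% at PP. A match in direction was therefore not equally likely for the 2 lists, and the counts were not tested. Besides the chromosome 22 region above, chromosome 10, 38383051 to 38384050, had knockout values of 289, 331 and 234 and control values of 68, 77 and 215 at GT in the authors' deposited table. The third control library there came close to the lowest knockout value. At PE the authors' deposited table has 298, 302 and 455 against 104, 107 and 73 at that place, with a clear gap.

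Chromosome 19, 37742451 to 37743100, had knockout values of 174, 220 and 172 and control values of 79, 78 and 80 at GT in the authors' deposited table. Its log2 ratio in the authors' deposited table was -1.25 at GT, -1.72 at ESC, -1.38 at DE, -2.48 at PE and -1.76 at PP, so the smallest ratio was that of GT. Chromosome 18, 14430951 to 14431700, had 277, 295 and 280 against 112, 194 and 151 at GT in the authors' deposited table, and a ratio of -0.89 that was likewise smaller than the -1.12 to -1.52 of the other stages. Chromosome 5, 115298351 to 115299150, and chromosome 6, 31744201 to 31746850, complete the 6. The former had GT values of 229, 266 and 236 against 176, 120 and 113 in the authors' deposited table, and in the latter the genotypes overlapped at GT.

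Of the recurrent control regions, chromosome 12, 127650301 to 127651100, joined the chromosome 2 region in being higher in control at all stages. At GT the authors' deposited table gives control values of 366, 317 and 284 and knockout values of 194, 185 and 150. At ESC and DE the genotypes overlapped there, and at PE and PP they did not. Chromosome 19, 28283951 to 28285900, was higher in control at all stages as well, with 872, 913 and 728 against 677, 480 and 664 at GT in the authors' deposited table, but its right edge touched a PP region higher in the knockout.

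Other recurrent control regions changed direction along the course. Chromosome 6, 94127901 to 94129650, had control values of 1126, 953 and 1072 and knockout values of 833, 770 and 768 at GT in the authors' deposited table. At ESC the authors' deposited table has 1630, 1826 and 1497 for the knockout and 1194, 1242 and 1243 for control. The knockout was listed as higher there at PE and PP too, and control at DE. The genotypes overlapped at DE and PE and did not overlap at ESC, GT and PP.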

How the data were processed

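ATAC-seq had been measured in 3 control and 3 HNF6 knockout samples at GT. Libraries were made with a Nextera kit, per the labels' protocols. The submitters' processing notes name Bowtie2, MACS2 and the build hg19. How they were run, which tool made the differential lists and whether reads were shifted or scaled was not given in the sources used here, and each could move the values. For each region the authors deposited 3 knockout and 3 control whole numbers of unstated scaling, a -log10 p and a log2 ratio of control over knockout. The log2 ratio was recomputed as the ratio of means with 1 added to each. Which numbers belong to which genotype was read from the direction of the lists.

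Autosomal GT regions were counted, and matched with clusters and other stages by at least 1 bp. Shares have 95% Wilson intervals. Work was done in Python 3.11.15 with numpy 2.4.6, pandas 2.3.3 and matplotlib 3.10.9, with intervals from scipy 1.17.1. Exact permutation tests of the values at other stages had been planned and are not reported, because the regions with values there were listed for a difference between the same libraries. No count model was run. The overlap code was tested on simulated data, with 0 overlaps differing from a direct search over 600 regions.

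Regions named are the 5 of each GT list with the highest -log10 p, the 5 with the largest ratio under the limits given above, those near the chromosome 15 interval and those listed at all 5 stages. The regions of the comparison and the lists were chosen with earlier results of these data known. Windows, runs, level and width classes and the chromosome mix were chosen after their values were seen. Gene lists and a motif search had been planned and were not run, since no annotation or sequence of hg19 was used. Depth per sample is unknown.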

Additional observations from a re-analysis of the deposited data

Results flagged for a closer look

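Opposite directions at GT and at another stage were flagged where all 3 values of one genotype lay above those of the other at both stages. The difference between stages was not tested, and the regions of each stage were listed for a difference between its own libraries. Regions higher in the knockout at GT had a control minus knockout difference of 0.14 at ESC on the log2 scale, and regions higher in control at GT had -0.52 at PP. Over all listed regions the differences were -0.26 at ESC and -0.98 at PP.

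Among the leading regions by -log10 p, chromosome 3 at 167452001 was higher in control at GT and had a log2 ratio of -0.38 at PP in the authors' deposited table. Chromosome 12, 123469201 to 123473450, was higher in the knockout at GT, with 1208, 1245 and 1148 against 802, 721 and 787 for control in the authors' deposited table. It overlapped regions higher in control at ESC (log2 ratio 0.76), DE (0.77) and PE (0.88) in the authors' deposited table. The DE region higher in control ended at 123469300 and so shared only the left edge of the GT region. At ESC and DE the GT region also overlapped a region higher in the knockout, at -0.84 and -0.34. At PP it overlapped only a region higher in the knockout, at -0.90. The listed direction thus differed along its 4250 bp at ESC, and at DE only at its left edge.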

How the results depend on the processing

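The control share of the GT lists was 27.1%. It lay between 26.99% and 27.2% with values that did not overlap, with regions under 1 kb apart joined and with a mean of at least 50. The upper part of each list by -log10 p took the same fraction of both lists, so its share of 27.1% was fixed in advance. The control share was 24.6% without chromosome 7 and 28.6% without chromosome 17. Leaving out 1 library, over regions whose other values did not overlap, gave 26.1% to 28.1%. Leaving out chromosomes or libraries for this share was chosen after seeing the data. Counts of regions with at least 2-fold ratios ranged from 1077 to 1215 (control) and from 3274 to 4372 (knockout) without 1 library. In the upper part of the lists, the share of cluster 6 in the control list relative to all clusters was 1.21 in place of 1.61, and that of cluster 9 was 0.134 in place of 0.205. The cause was not tested. The other 70 relative shares and all 44 shares by autosome stayed within the counting error of the main value. These settings reuse parts or joins of the same lists, so staying near the main value was largely built in. Of 80 recomputed differences at other stages 79 kept their direction. That of the GT control list at PE turned to -0.067 with summed values, from 0.029, and the cause was not tested. No paired analysis was possible because the deposited values carry no replicate numbers. Other gene windows and motif spellings were not run, for want of hg19 annotation and sequence here. Depth is unknown, so what it limits could not be given.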

Other observations

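Some broad GT regions covered several narrower regions of other stages. Chromosome 16, 2024601 to 2029600, had knockout values of 1864, 1349 and 1795 and control values of 1275, 1090 and 1427 at GT in the authors' deposited table, with overlapping values. Within or beside it lay 3 ESC regions, all higher in control, with log2 ratios of 0.78, 0.53 and 0.32 in the authors' deposited table. The 4 overlapping regions of DE, PE and PP were all higher in the knockout, with ratios from -0.46 to -0.83 in the same table. The PP region lay to the left of all 3 ESC regions, so it does not show the same place at both stages.

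Chromosome 12, 133067951 to 133073350, had listings in the same directions, but not all at the same place. At GT it had knockout values of 1424, 1586 and 1602 and control values of 1009, 1267 and 1255 in the authors' deposited table. Its ESC region was higher in control, with 356, 339 and 197 against 130, 213 and 222 in the authors' deposited table, and the genotypes overlapped. Those of DE, PE and PP were higher in the knockout. The DE region overlapped the ESC region, and the PE and PP regions lay to its right.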
